A study of Mus musculus with 10 samples.

Results

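Wells of pTSCs with many transcripts of the ERK feedback genes Dusp6 and Spry4 are described here, next to wells of the same plate with few. The pTSCs of this plate were newly derived mouse trophoblast stem cells, cultured counterparts of the trophectoderm that forms the outer wall of the blastocyst. The plate held 384 sorted wells, and 299 kept at least 2000 transcripts, counted by molecular identifiers (UMIs), outside mitochondrial genes. A well was called feedback-high when Dusp6 and Spry4 together gave 5 or more UMIs per 10000, and feedback-low when they gave under 3. By this rule 112 of the 299 kept pTSC wells were feedback-high, of 1192 kept wells in the whole series. A further 131 wells were feedback-low and 56 lay between. Feedback-high wells were 37.5% of the kept wells of the plate (exact binomial 95% interval 32.0 to 43.2, which covers counting error only).

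The series holds 4 single-cell plates, 1 per group, and 6 bulk libraries, all on a C57BL/6J background and made with CEL-Seq2. In the single-cell lines a GFP expression cassette had integrated at random. The pTSCs were grown in LT21 conditions. The other plates held F4 TSCs in Tx conditions, F4 TSCs differentiated by 6 days without Fgf4, Tgfb and heparin, and pTS1 pTSCs taken back out of blastoids. The bulk libraries came from TSCs that carry an eGFP knock-in at the CDX2 coding sequence, 3 labelled CDX2-High and 3 labelled CDX2-Low. Each single-cell plate is 1 library, so wells are not replicates and no p-value was made from them.

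FGF4 binds FGF receptors on trophoblast stem cells and, through RAS, RAF and MEK, activates the kinase ERK, which keeps these cells dividing and undifferentiated. ERK in turn induces its own brakes. DUSP phosphatases remove the activating phosphates from ERK and related kinases, and Sprouty (Spry) and Spred proteins act further up, at the level of RAS and RAF. The level of these brake transcripts is often read as a record of recent ERK activity.

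Dusp6 and Spry4 chose the wells, so their values are a description of the choice. Together they gave 5.11 to 28.2 UMIs per 10000 (median 8.14) in feedback-high wells, from 2 to 45 UMIs (median 7) in a well. The 3 wells just inside the upper limit had 5.106, 5.149 and 5.151 per 10000, and the 3 just outside it 4.927, 4.922 and 4.906. Next to the lower limit, the 3 closest feedback-low wells had 2.970, 2.952 and 2.946 and the 3 closest wells left between had 3.051, 3.087 and 3.091. The choice thus rested on few molecules: 7 feedback-high wells and 120 feedback-low wells held 2 or fewer UMIs of both genes together. Depth was close between the sets, with a median of 7422.5 UMIs per feedback-high well, 6017 between and 6788 per feedback-low well. The share of mitochondrial UMIs was 14.5%, 15.1% and 14.7% (medians, in the same order). After each well was thinned to 2000 UMIs, the median number of genes detected was 1195.5, 1188 and 1185. The tables number the wells of each plate alike, so cell barcodes could not be compared between plates.

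**Figure D1:**
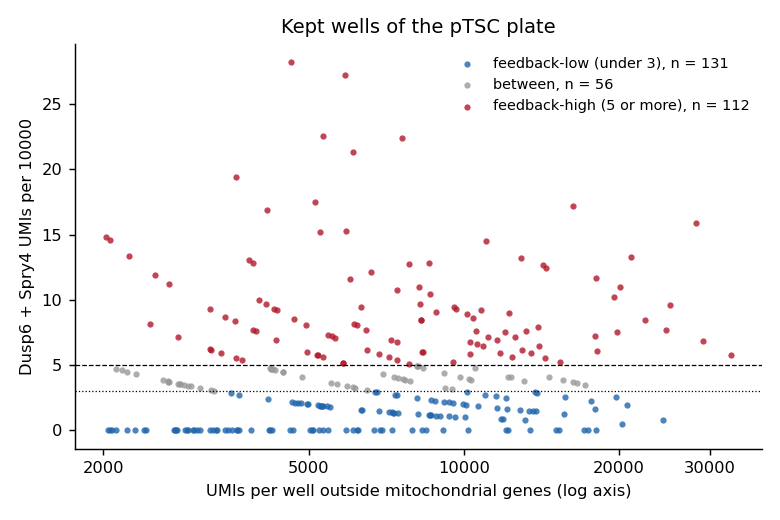
Each point is 1 kept well of the pTSC plate, with its UMIs outside mitochondrial genes on a log axis and its summed Dusp6 and Spry4 UMIs per 10000 on the vertical axis. The dashed line marks the limit of 5 for the 112 feedback-high wells and the dotted line the limit of 3 for the 131 feedback-low wells. Depths ran from 2026 to 33027 UMIs in feedback-high and from 2037 to 24362 in feedback-low wells.

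Among genes other than the selecting pair, the phosphatase Dusp5, the Sprouty gene Spry2 and the retinoic acid hydroxylase Cyp26a1 were higher in feedback-high wells, as given further on. Their promoters are shown as examples: Spry2 and Dusp5 are the feedback inhibitors among the 12 named higher genes, and Cyp26a1 is among the named genes with the largest ratios. The sequences run from 250 bases before to 50 after the gene start (RefSeq, GRCm38.p6), with capitals marking GGAA, the core bound by ETS factors that ERK phosphorylates, and AGTTCA, a motif bound by retinoic acid receptors. Both motifs were searched on both strands, so TTCC and TGAACT are marked too, and they do not overlap each other.
Spry2, chr14:105896770-105897069, minus strand: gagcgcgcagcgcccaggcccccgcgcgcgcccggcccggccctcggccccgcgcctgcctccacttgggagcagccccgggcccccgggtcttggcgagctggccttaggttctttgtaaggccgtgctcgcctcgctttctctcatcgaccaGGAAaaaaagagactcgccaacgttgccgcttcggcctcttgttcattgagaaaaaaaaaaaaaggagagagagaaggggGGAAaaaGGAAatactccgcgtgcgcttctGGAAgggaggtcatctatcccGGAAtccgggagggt
Dusp5, chr19:53528895-53529194, plus strand: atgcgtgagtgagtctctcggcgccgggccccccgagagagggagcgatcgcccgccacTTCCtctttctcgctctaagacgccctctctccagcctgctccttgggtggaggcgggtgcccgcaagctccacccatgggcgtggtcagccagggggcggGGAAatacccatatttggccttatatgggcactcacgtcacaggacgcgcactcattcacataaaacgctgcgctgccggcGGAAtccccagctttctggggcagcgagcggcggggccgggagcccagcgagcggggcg
Cyp26a1, chr19:37697558-37697857, plus strand: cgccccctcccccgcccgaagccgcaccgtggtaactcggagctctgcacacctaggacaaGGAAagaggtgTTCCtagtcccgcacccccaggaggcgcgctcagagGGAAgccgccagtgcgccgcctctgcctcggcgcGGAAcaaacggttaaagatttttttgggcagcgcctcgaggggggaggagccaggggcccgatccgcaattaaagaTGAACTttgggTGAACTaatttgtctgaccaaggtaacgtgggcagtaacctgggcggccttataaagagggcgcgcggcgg
Spry2 held 5 matches of GGAA, Dusp5 3 and Cyp26a1 4. That core is common, since 96.0% of 32851 promoters of this length hold it. Cyp26a1 also held 2 matches of TGAACT, spaced by 5 bases, and 13.99% of all promoters hold at least 1 match of that motif. A match is a description of these letters. Of the 24 genes named below, 16 had a promoter in the RefSeq table.

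Counts were summed over the wells of a set and divided by the set's total (CPM, counts scaled to a common total), which rested on 1032349 UMIs in feedback-high and 1023743 in feedback-low wells. A gene was measured with at least 30 UMIs over both sets, and called higher or lower past a ratio of 1.5-fold in either direction. Of 5932 measured genes, 380 (6.41%) were higher and 437 (7.37%) lower in feedback-high wells, and the median log2 ratio was -0.0014. Intervals given with a ratio are exact conditional binomial intervals at 95% and cover counting error only, not the spread between cells or plates. The 12 genes named in each direction have at least 50 UMIs and the largest difference at the interval bound nearest to 1. They were picked for these ratios, which are therefore a description.

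The list of FGF and ERK targets other than the selecting genes held 24 genes, of which only 15 had enough UMIs to be measured. Of these 15, 6 were higher (Spry2, Dusp4, Dusp5, Spred1, Spred2 and Spred3) and 1 was lower (Ccnd1), with a median log2 ratio of 0.38. All 6 encode inhibitors of the same pathway. The other 8 stayed within 1.5-fold, among them another DUSP phosphatase gene, Dusp2, as well as Epha2 and Cdx2. Spry2 gave 188 UMIs in feedback-high and 84 in feedback-low wells, 2.22-fold higher (1.71 to 2.91). Per well it had a median of 1.514 and a highest value of 13.028 UMIs per 10000 in feedback-high wells, against a median of 0 and a highest value of 9.695 in feedback-low wells. The ranges of the sets overlapped for Spry2, as both began at 0. With every well thinned to 2000 UMIs, 33.0% of feedback-high wells (24.4 to 42.6) and 13.0% of feedback-low wells (7.75 to 20.0) kept a Spry2 UMI. Unthinned, 72 of 112 and 47 of 131 wells had one.

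Dusp5, a nuclear phosphatase of ERK, gave 410 against 218 UMIs, 1.87-fold higher (1.58 to 2.21). Its close relative Dusp4 gave 67 against 37 UMIs, 1.80-fold higher (1.19 to 2.76). The 3 Spred genes, whose products hold back RAF activation, ran from 1.55-fold for Spred2 (409 against 261 UMIs, 1.33 to 1.82) and 1.60-fold for Spred1 (168 against 104, 1.25 to 2.07) to 2.56-fold for Spred3 (62 against 24, 1.58 to 4.29). Il17rd, a membrane inhibitor of FGF signalling, had 123 against 94 UMIs, a ratio of 1.30 (0.98 to 1.72) that stayed under 1.5-fold. The count of 6 depended on how wells were chosen. When every well was first thinned to 2000 UMIs, where 1 selecting UMI makes 5 per 10000, 150 wells were feedback-high and 149 feedback-low, and 1 of 15 targets passed 1.5-fold (Spred3, log2 ratio 1.10). Under that choice Spry2 had a log2 ratio of 0.47, Dusp5 of 0.55 and Dusp4 of -0.12.

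Besides the selecting genes, Ccnd1, Foxq1 and Sox3 were proposed as markers of such wells, and of these 3 only Sox3 was past 1.5-fold and higher. Foxq1, a forkhead factor, gave 339 UMIs in feedback-high and 272 in feedback-low wells, a ratio of 1.24 (1.05 to 1.46) that stayed under 1.5-fold. Ccnd1, the cyclin D1 of the G1 phase and a well-known ERK target, went the other way with 37 against 58 UMIs, a ratio of 0.63 (0.41 to 0.97). It had a UMI in 18 of 112 feedback-high and 31 of 131 feedback-low wells. Of the 37 UMIs, 12 came from the 53 wells with a Dusp6 and Spry4 sum of 5 to 8 (22.7 CPM, 11.7 to 39.7). In the 59 wells at 8 or more, Ccnd1 was at 49.6 CPM (32.1 to 73.2). That interval overlapped the one of feedback-low wells, at 56.7 CPM (43.0 to 73.2), so the lower level lay mainly in the wells at 5 to 8. When wells were chosen on Spry4 alone, the Ccnd1 log2 ratio was 0.00053, and on Dusp6 alone it was -2.08. The wells are therefore called here by the transcripts that chose them.

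Among 12 measured parts of the pathway itself, from receptors to kinases, 1 was higher and 1 lower, with a median log2 ratio of -0.05. Fgfr4, an FGF receptor, was the higher one: it gave 357 UMIs in feedback-high and 151 in feedback-low wells, 2.34-fold higher (1.93 to 2.86). Its median per well was 2.459 UMIs per 10000 in feedback-high wells (highest 23.818) and 0 in feedback-low wells (highest 19.389), and after thinning 47.3% and 25.2% of wells kept a UMI. Fgfr2, the receptor best known in trophoblast stem cells, had 30 against 42 UMIs and a ratio of 0.71 (0.43 to 1.16). The RAF family kinase Araf was the lower one at 14 against 23 UMIs (ratio 0.60, 0.29 to 1.22), an interval that reaches both sides of 1. Hbegf, a ligand of the EGF receptor family, which also feeds ERK, gave 135 against 52 UMIs and was 2.57-fold higher (1.86 to 3.62).

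A list of transcription factors, made of Sox and Zic genes with Nr0b1 and the forkhead gene Foxq1, had the highest median, 0.73, and 4 of its 6 measured members were higher and 0 lower. Sox3, an X-linked factor of the SoxB1 family that also holds Sox2, gave 433 UMIs in feedback-high and 133 in feedback-low wells, 3.23-fold higher (2.65 to 3.95). In single wells Sox3 ran from 0 to 32.517 UMIs per 10000 (median 1.849) in feedback-high wells and from 0 to 27.991 (median 0) in feedback-low wells. It was thus uneven: 65 of 112 feedback-high and 39 of 131 feedback-low wells had any Sox3 UMI, and the ranges overlapped. After thinning, the shares of wells with Sox3 were 41.96% (32.7 to 51.7) and 15.3% (9.58 to 22.6). A single feedback-high well held 63 of the Sox3 UMIs, and the log2 ratio went from 1.69 to 1.49 without it. Over all choices of wells it ran from 1.11 (after thinning) to 2.47 (8 or more against under 2 per 10000).

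Zic2, a zinc-finger factor, gave 99 against 36 UMIs, 2.73-fold higher (1.85 to 4.11). Zic5, which lies beside Zic2 in the genome, gave 248 against 141 UMIs, 1.74-fold higher (1.41 to 2.16). Nr0b1, an orphan nuclear receptor encoded on the X chromosome, was 1.59-fold higher (88 against 55 UMIs, 1.12 to 2.27). Sox21, another SoxB factor, was at 118 and 122 UMIs, a ratio of 0.96 (0.74 to 1.25). Among feedback-high wells, those with a Sox3 UMI (65 wells) had more Fgfr4 (407 against 251 CPM), Eomes (780 against 536 CPM) and Nat8l (1442 against 847 CPM) than those without (47 wells), while Zic2 was at 89.5 and 106 CPM. The same 3 genes were also higher in the 39 feedback-low wells with Sox3 than in the 92 without it, with Fgfr4 at 245 and 100.1 CPM, Eomes at 562 and 377 CPM and Nat8l at 1041 and 560 CPM. These were not the only ones: Spry2, Duox2 and Cyp26a1 were higher with Sox3 in both sets too, and Krt8 was lower in both. In both sets the wells with Sox3 were also deeper, with medians of 8200 against 6476 UMIs in feedback-high and 7421 against 6224.5 in feedback-low wells, and the part of depth in these differences was not tested.

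**Figure D2:**
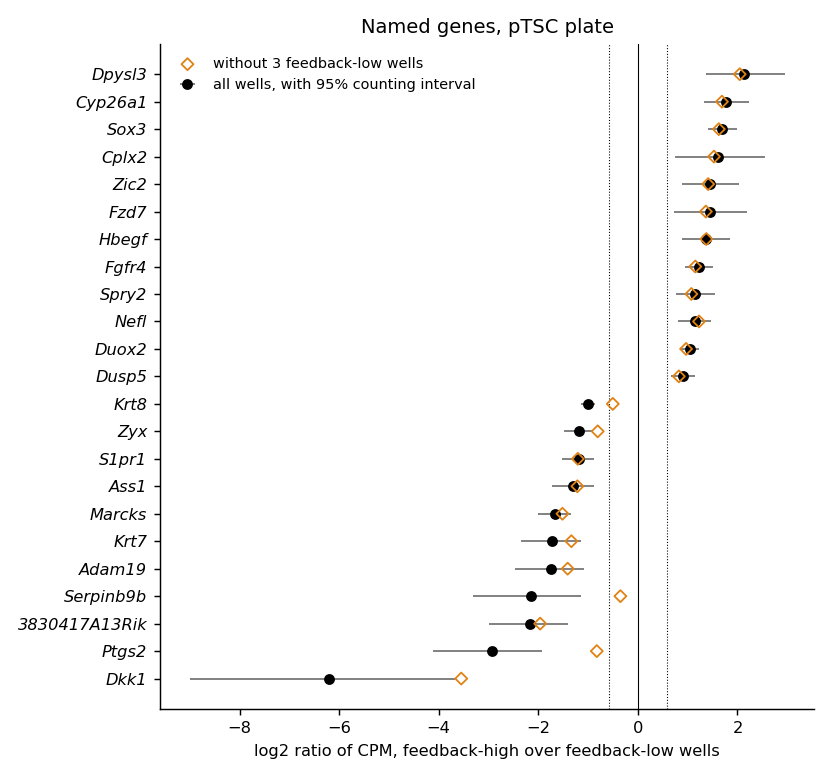
For the named genes, black points give the log2 ratio of CPM in feedback-high over feedback-low pTSC wells, with 95% counting intervals, and open diamonds the ratio without the 3 feedback-low wells that had the most Krt8 UMIs. Dotted lines mark 1.5-fold. The 12 genes on the right barely moved without those wells, while Ptgs2, Serpinb9b, Dkk1 and Krt8 moved towards 0.

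Regulators of the stem state mostly stayed within 1.5-fold. Of 12 measured, 2 were higher, 1 was lower and the median log2 ratio was -0.16. Eomes, a T-box factor needed for trophoblast stem cells, gave 706 against 448 UMIs, 1.56-fold higher (1.39 to 1.76), and its median was 6.309 UMIs per 10000 in feedback-high and 3.983 in feedback-low wells. Bmp4, a ligand made by these cells, was 1.69-fold higher (85 against 50 UMIs, 1.18 to 2.44). The RNA-binding protein gene Lin28a was lower at 150 against 226 UMIs (ratio 0.66, 0.53 to 0.81). Sox2 was level at 567 and 571 UMIs (ratio 0.985, 0.87 to 1.11), and so was Gata3 at 430 and 460 (0.93, 0.81 to 1.06). Cdx2 and Elf5, which define trophoblast stem cells, were sparse in both sets, with 50 and 64 UMIs for Cdx2 and 13 and 18 for Elf5.

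Polar trophectoderm, the part of the wall that touches the inner cell mass and receives its FGF4, has its own markers. Here 4 of 11 measured polar markers were higher, 1 was lower and the median log2 ratio was 0.20. Duox2, an oxidase that makes hydrogen peroxide, gave 707 against 341 UMIs, 2.06-fold higher (1.80 to 2.35), with a median per well of 5.375 against 1.653 UMIs per 10000. With wells chosen after thinning or on Dusp6 alone, Duox2 was under 1.5-fold (log2 ratios 0.46 and 0.39, from 1.04). Duoxa2, its maturation factor, was 1.55-fold higher (72 against 46 UMIs, 1.06 to 2.30). Nat8l, which makes N-acetylaspartate, gave 1247 against 734 UMIs and was 1.68-fold higher (1.54 to 1.85). The fourth, the ubiquitin ligase Rnf128, had only 20 and 12 UMIs (ratio 1.65, 0.77 to 3.71). The transcriptional co-regulator Cited1 was the lower one, at 76 against 129 UMIs (ratio 0.58, 0.43 to 0.78). With wells chosen after thinning, 0 of the polar markers passed 1.5-fold upwards.

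The remaining named higher genes have other roles. Cyp26a1, which breaks down retinoic acid, gave 185 UMIs in feedback-high and 54 in feedback-low wells, 3.40-fold higher (2.497 to 4.69), and 51 of 112 against 27 of 131 wells had a UMI. Its log2 ratio of 1.76 was 0.79 with wells chosen after thinning and 0.63 with wells chosen on Dusp6 alone. Dpysl3, a regulator of the cytoskeleton, gave 79 against 18 UMIs (4.35-fold, 2.58 to 7.72), a log2 ratio of 2.12 that ran from 0.73 with wells chosen after thinning to 3.38 for wells at 8 or more against under 2 per 10000. Nefl, the light neurofilament chain, gave 244 against 110 UMIs (2.20-fold, 1.75 to 2.78), of which 36 came from 1 feedback-high well. The WNT receptor gene Fzd7 (63 against 23 UMIs) and the complexin gene Cplx2 (46 against 15 UMIs) were 2.72-fold (1.66 to 4.59) and 3.04-fold (1.67 to 5.86) higher. For Fzd7 the log2 ratio of 1.44 was 0.65 with wells chosen after thinning and 0.61 with wells chosen on Spry4 alone.

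Across 4 tiers of the selecting score, from under 3 (131 wells) through 3 to 5 (56 wells) and 5 to 8 (53 wells) to 8 or more (59 wells), the genes took different courses. Sox3 stood at 130, 165, 290 and 556 CPM, and Cyp26a1 at 52.7, 105, 146 and 214 CPM. Spry2 was level in the first pair of tiers and then higher, at 82.1, 78.7, 136 and 230 CPM. Fgfr4 was at 147, 223, 327 and 365 CPM, with overlapping intervals in the top pair. Eomes was at 438 CPM (398 to 480) in the first tier and at 687, 662 and 706 CPM in the others, whose intervals overlapped. Duox2 peaked in the third tier, at 333, 587, 782 and 583 CPM.

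**Figure D3:**
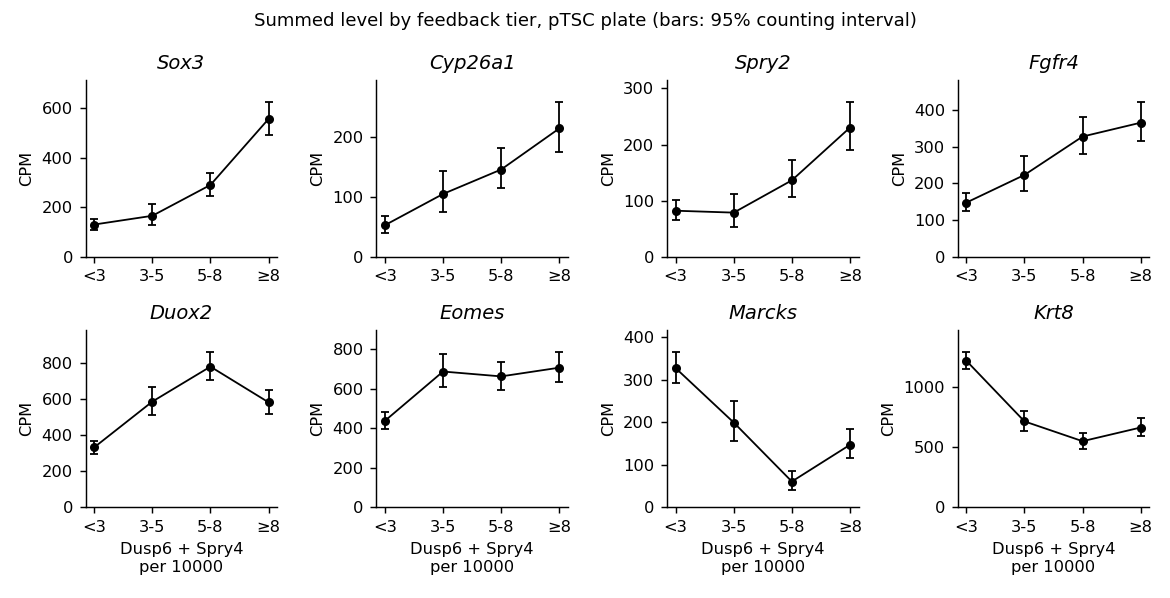
Each panel plots the summed level (CPM) of 1 gene in 4 tiers of pTSC wells by their Dusp6 and Spry4 UMIs per 10000, with 95% counting intervals as bars. Sox3, Cyp26a1 and Fgfr4 were higher in each next tier, Eomes was level above the first, and Marcks and Krt8 were highest in the first.

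Of the 12 named lower genes, several rested largely or in part on few wells. Dkk1, a secreted WNT antagonist, gave 1 UMI in feedback-high and 73 in feedback-low wells (log2 ratio -6.20), but 36 and 26 of the 73 came from single wells. Ptgs2, the inducible cyclooxygenase, gave 9 against 68 UMIs, of which 47 came from 1 well, and the placental serpin Serpinb9b 10 against 44, of which 27 came from that same well. Krt8, a keratin of the trophectoderm wall, gave 626 against 1250 UMIs (ratio 0.50, 0.45 to 0.55), with 177, 146 and 92 UMIs in 3 feedback-low wells. Those 3 wells held 15090, 24362 and 13434 UMIs in all and had 0, 2 and 0 UMIs of the selecting genes. Without them, the log2 ratio went from -1.01 to -0.50 for Krt8, from -2.93 to -0.83 for Ptgs2, from -2.15 to -0.35 for Serpinb9b, from -6.20 to -3.55 for Dkk1 and from -1.19 to -0.81 for Zyx, an adhesion protein gene. Krt8 and Serpinb9b were then under 1.5-fold. The Krt8 difference did not rest on those 3 wells alone. Feedback-low wells outside them reached 59.5, 59.1, 50.9 and 46.7 Krt8 UMIs per 10000, against at most 25.6 in feedback-high wells. Most feedback-low wells lay within the feedback-high range. With every well weighted equally, the Krt8 log2 ratio was -0.77. Among the 53 feedback-high and 66 feedback-low wells of middle depth, Dkk1 (log2 ratio -0.41) and Krt8 (-0.56) were under 1.5-fold too. Those feedback-high wells held at most 1 Dkk1 UMI, and a count of 0 was set to 3 UMIs for a ratio. The Dkk1 value there thus rests on almost no feedback-high counts. Those 3 wells left out were picked after their values were seen.

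Among the other lower genes, Marcks depended less on the 3 wells. This substrate of protein kinase C at the membrane gave 106 UMIs in feedback-high and 335 in feedback-low wells (ratio 0.31, 0.25 to 0.39). Its median was 0 in feedback-high wells (highest 11.133 UMIs per 10000) and 1.495 in feedback-low wells (highest 23.330), and 50 of 112 against 79 of 131 wells had a UMI. Without the 3 wells its log2 ratio was still under -1.5 (-1.52, from -1.67), and with wells chosen after thinning it was -1.07. S1pr1, a receptor for sphingosine 1-phosphate, gave 118 against 267 UMIs (ratio 0.44, 0.35 to 0.55), and Ass1, an enzyme of arginine synthesis, 71 against 173 (0.41, 0.30 to 0.54). The keratin Krt7 (32 against 105 UMIs, ratio 0.30), the metalloprotease gene Adam19 (24 against 80, 0.30) and 3830417A13Rik (18 against 80, 0.22) were lower too. Their log2 ratios were nearest to 0 at -0.81 for Krt7 (wells of middle depth), -0.86 for Adam19 (wells chosen on Dusp6 alone) and -0.98 for 3830417A13Rik (after thinning).

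Mural trophectoderm lies away from the inner cell mass. Of 11 measured mural markers 1 was higher and 4 were lower (Krt8, Krt18, Tinagl1 and Slc5a5), with a median log2 ratio of -0.32. Without the 3 wells 1 was lower. Krt18, the partner of Krt8, gave 1857 against 3270 UMIs (ratio 0.56, 0.53 to 0.60), and its log2 ratio went from -0.83 to -0.49. Flt1, a receptor for VEGF and placental growth factor, was at 384 and 457 UMIs (0.83, 0.73 to 0.96). Of 6 measured genes of the ectoplacental cone and spongiotrophoblast, the layers that arise from the stem cells, 0 were higher and 2 lower. These were the kinase gene Nrk (24 against 69 UMIs, ratio 0.34, 0.21 to 0.56) and the homeobox gene Rhox6 (310 against 588 UMIs, 0.52, 0.45 to 0.60). Of the 69 Nrk UMIs in feedback-low wells, 18, 0 and 10 came from the 3 wells. Rhox6 went from -0.94 to -0.60 on the log2 scale without the 3 wells. Among 16 measured genes of junctions and keratins 1 was higher and 4 lower, and 2 were lower without the 3 wells.

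Cell cycle genes stayed within 1.5-fold in both directions: 0 of 9 measured S phase genes and 0 of 16 G2 and M phase genes passed, with median log2 ratios of 0.13 and 0.17. The same held for 13 genes of cholesterol synthesis (median 0.09) and 16 of ribosome biogenesis and MYC targets (0.09). Of 9 immediate early and heat shock genes 0 were higher and 1, Jund, was lower (226 against 408 UMIs, ratio 0.55, 0.47 to 0.65). Of 4 WNT targets 0 were higher and 2 lower (Dkk1 and T), of 9 p53 targets 0 and 1 (Sesn2), of 6 STAT3 targets 0 and 1 (Tfcp2l1), and of 4 interferon genes 0 and 1 (Ifitm3). Of 4 YAP targets 1 was higher (Lats2), and of 9 genes of glycolysis and hypoxia 1 (Egln3). None of 4 labyrinth genes or the single measured giant cell gene passed.

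**Figure D4:**
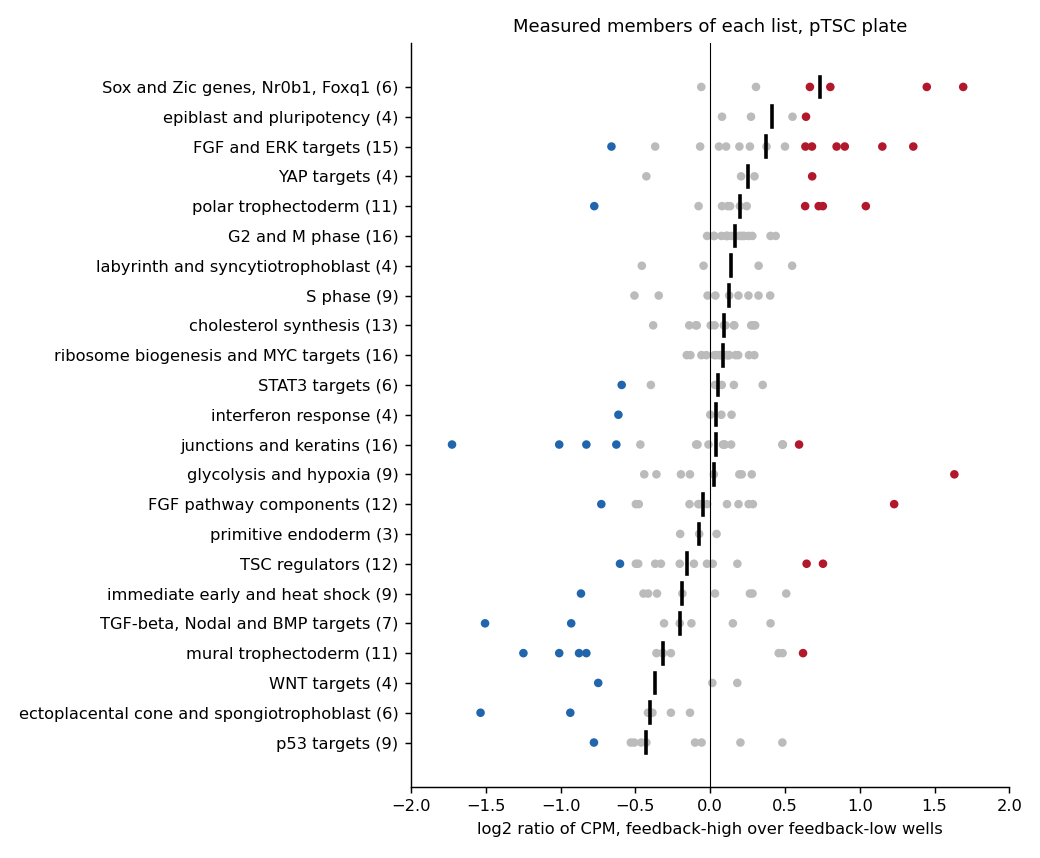
Points are the measured members of each gene list with at least 3 of them (their number in brackets), placed by log2 ratio of CPM in feedback-high over feedback-low pTSC wells. Red points are past 1.5-fold higher, blue points past 1.5-fold lower, and bars are list medians. The list of Sox and Zic genes, Nr0b1 and Foxq1 had the highest median (0.73) and p53 targets the lowest (-0.43), and Dkk1, of the WNT list at -6.20, lies off the axis.

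Markers of other cell types were looked for in both sets. Nanog and Tdgf1, which define the epiblast, had 0 UMIs in either set (a count of 0 allows up to 3 UMIs), and Pou5f1 had 1 and 0. The 5 epiblast markers summed to 122 CPM in feedback-high and 102 CPM in feedback-low wells, nearly all from Zfp42 (123 and 101 UMIs). Klf4 was the 1 of 4 measured pluripotency genes that passed 1.5-fold, at 22 and 14 UMIs (ratio 1.56, 0.76 to 3.29). Primitive endoderm markers summed to 9.69 and 8.79 CPM with Gata4 and Pdgfra at 0, and 0 of 3 measured genes of the longer list passed. Fibroblast markers summed to 42.6 and 40.05 CPM, with 4 of 6 at 0 in both sets and the rest mostly Thy1 (41 and 38 UMIs). The 8 trophoblast markers summed to 4119 and 5948 CPM, and none was at 0 in either set. Krt8 and Krt18 made up 2405 and 4415 CPM of these, while the other 6 summed to 1714 and 1533 CPM. Of those 6, only Eomes was higher in feedback-high wells, at 684 against 438 CPM. Cdx2, Elf5, Sox2, Gata3 and Tfap2c (3 and 8 UMIs) were level or lower.

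The same rule was then applied to the other plates, which it had not been written for. Of 318 kept TSC wells 31 were feedback-high and 255 feedback-low, of 318 differentiated wells 12 and 287, and of 257 blastoid pTSC wells 2 and 245. The share of feedback-high wells was thus 37.5% in the pTSC plate, 9.75% (6.72 to 13.6) in the TSC plate, 3.77% (1.96 to 6.50) in the differentiated plate and 0.78% (0.09 to 2.78) in the blastoid plate. Each plate is 1 library of another condition and depth, with a median of 15091 UMIs per kept well in the TSC plate against 6844 in the pTSC plate, so the shares carry no test. With 2 wells, the blastoid plate gave no ratios.

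In the TSC plate, 781 of 7663 measured genes (10.2%) were higher in feedback-high wells and 1326 (17.3%) lower. In the differentiated plate the counts were 1383 of 6615 (20.9%) and 1518 (22.9%), which rest on 12 wells. Of the 12 genes named as higher in the pTSC plate, 10 of 12 measured in the TSC plate were higher past 1.5-fold and 0 lower. The exceptions, Dusp5 and Hbegf, had ratios of 1.28 (1.06 to 1.54) and 1.04 (0.67 to 1.57). Cyp26a1 in TSCs gave 245 UMIs in 31 feedback-high and 93 in 255 feedback-low wells, 21.9-fold higher (17.2 to 28.1), with a UMI in 21 of the 31. Sox3 gave 204 against 157 UMIs, 10.8-fold higher (8.73 to 13.4), but 115 of the 204 came from 1 well and 13 of the 31 had any. Spry2 was 6.95-fold (4.93 to 9.75) and Fgfr4 4.79-fold (3.89 to 5.89) higher.

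In the TSC plate 13 of 15 measured FGF and ERK targets were higher and 0 lower, with a median log2 ratio of 1.36 against 0.38 in pTSCs. Ccnd1 and Foxq1, which were not past 1.5-fold higher in pTSCs, were so there: Ccnd1 at 11 against 28 UMIs (3.27-fold, 1.47 to 6.77) and Foxq1 at 95 against 227 (3.48-fold, 2.71 to 4.44). All 6 measured members of the list of Sox and Zic genes, Nr0b1 and Foxq1 were higher, Foxq1 itself among them, and 8 of 11 polar markers, with Nat8l at 4.02-fold (3.75 to 4.32). Of 11 named lower genes measured in TSCs, 9 were lower and 0 higher, among them Krt8 (49 against 1761 UMIs, ratio 0.23, 0.17 to 0.31), Dkk1 (4 against 385, 0.09, 0.02 to 0.22) and Marcks (15 against 408, 0.31, 0.17 to 0.51).

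In the differentiated plate only 6 of the 12 named higher genes were measured: Dpysl3 and Fgfr4 were higher, Hbegf and Dusp5 were lower, and Nefl and Fzd7 stayed within 1.5-fold. Fgfr4 was at 11 against 41 UMIs (6.39-fold, 2.96 to 12.7). All 12 named lower genes were measured, and 11 were lower and 0 higher, with Krt8 at 52 against 6984 UMIs (ratio 0.18, 0.13 to 0.23). S1pr1 was the exception (1.28, 0.79 to 1.99). Of FGF and ERK targets 8 of 12 were higher and 2 lower. G2 and M phase genes passed there in 13 of 15 cases, all higher, with a median log2 ratio of 1.13, and in 4 of 16 in the TSC plate, against 0 of 16 in the pTSC plate.

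**Figure D5:**
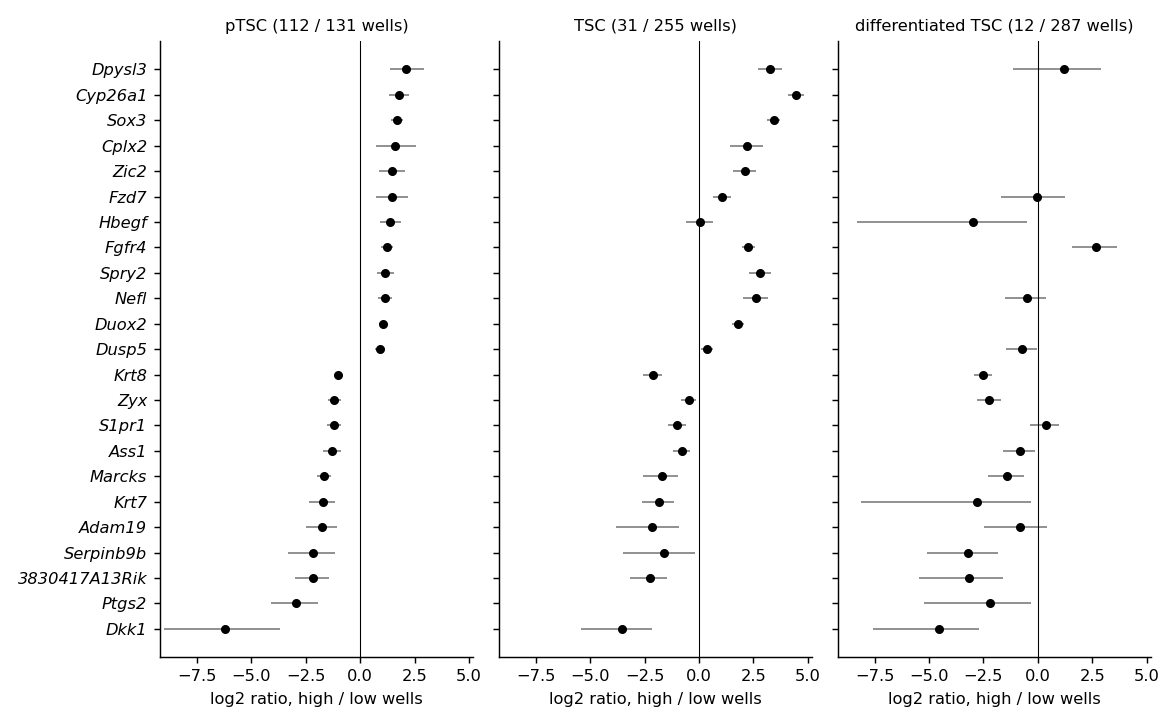
The panels give the log2 ratio, feedback-high over feedback-low wells, of named genes in the pTSC, TSC and differentiated TSC plates, with 95% counting intervals and the number of feedback-high and feedback-low wells in each title. Only genes with at least 30 UMIs in a plate are drawn. In the TSC plate most genes lie on the same side as in pTSCs, while Hbegf and Dusp5 lie left of 0 in the differentiated plate.

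The bulk libraries give replicated values for the same genes in another contrast, CDX2-high against CDX2-low TSCs. They are sorted populations, in which fewer cells of a type and less RNA per cell cannot be told apart. With edgeR's quasi-likelihood test at a Benjamini-Hochberg adjusted p under 0.05, 93 of 3006 tested genes (3.09%) rose and 84 (2.79%) fell in CDX2-high libraries. Nothing in the labels says that libraries of a group came from separate cultures, so these p-values may measure technical spread only. Of the 12 named higher genes 3 had enough counts to be tested and all 3 rose (Sox3, Zic2 and Cyp26a1). Of the named lower genes, Krt8 and Marcks fell.

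Sox3 was at 858, 545 and 696 CPM in the CDX2-high libraries and at 30.8, 277 and 128 CPM in the CDX2-low libraries. Every CDX2-high library was above every CDX2-low library (log2 difference 2.201, SE 0.35, with an adjusted p of 0.000204 in edgeR), but DESeq2 gave an adjusted p of 0.0689. Zic2 was at 251, 200 and 323 CPM against 30.8, 26.0 and 18.3 CPM, again without overlap (3.34, SE 0.41, adjusted p = 9.28e-06, edgeR). Cyp26a1 was at 144, 172 and 168 CPM against 30.8, 78.0 and 54.8 CPM (1.54, SE 0.38, adjusted p = 0.0137, edgeR). That call was lost with DESeq2 (adjusted p = 0.0746) and in edgeR without CDX2-high library 39 (0.0624) or CDX2-low library 40 (0.0641).

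Krt8 was at 228, 238 and 297 CPM in CDX2-high and at 1026, 789 and 940 CPM in CDX2-low libraries, a log2 difference of -1.83 (SE 0.22, adjusted p = 7.05e-06, edgeR). Marcks was at 15.2, 18.6 and 31.0 CPM against 103, 130 and 173 CPM (-2.55, SE 0.45, adjusted p = 0.000697, edgeR). Of the proposed markers, Ccnd1 rose, from 10.3, 26.0 and 45.6 CPM in CDX2-low to 190, 126 and 177 CPM in CDX2-high libraries (2.51, SE 0.46, adjusted p = 0.000968, edgeR). Foxq1 fell, from 113, 182 and 91.3 CPM to 53.2, 60.6 and 39.9 CPM (-1.34, SE 0.40, adjusted p = 0.0437, edgeR; 0.178 with DESeq2). Sox3 was thus higher in both contrasts. Ccnd1 was lower in feedback-high pTSC wells, though level with wells chosen on Spry4 alone, and rose in CDX2-high libraries. In the TSC plate Ccnd1 and Foxq1 were both higher in feedback-high wells, which for Foxq1 is opposite to its fall in bulk. All 3 CDX2-high libraries were deeper (157588 to 272030 counts) than the CDX2-low libraries (116659 to 138966), so depth and group cannot be told apart there.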

How the data were processed

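Single-cell tables, as deposited, hold transcript counts per gene and well made by the authors, treated here as estimated counts. Their values are whole numbers and were used without rounding. The bulk table, as deposited, holds raw counts per gene and library. The submitters' processing notes name STAR 2.5.3a. Counting program, genome build, annotation and strand handling were not given in the sources used here, so antisense and overlapping genes could not be separated. A list of well barcodes was not used.

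The limit of 2000 UMIs per well, mitochondrial genes left out, dropped 85 of 384 pTSC wells, of which 20 had fewer than 200. Doublets were not called, since single cells had been sorted. Counts were summed per set of wells and scaled to CPM. Ratios carry exact conditional binomial intervals at 95%, shares of wells Clopper-Pearson intervals, and all cover counting error only. On simulated summed counts of 5934 genes, drawn from the same counting model that the intervals assume, 95.7% of intervals held the true ratio. Those draws do not include uneven expression between cells.

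The named genes were the 12 highest and 12 lowest outside the selecting and mitochondrial genes with at least 50 UMIs, ranked by the interval bound nearest to 1, plus 2 to 4 members of each list with the most UMIs or past 1.5-fold, and Ccnd1, Foxq1 and Sox3. One item that falls under this rule is not reported here. The members, the lists and the rules were chosen with earlier results of these data known.

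For bulk counts, edgeR 4.0.16 (R 4.3.3) was used with filterByExpr, TMM, glmQLFit and glmQLFTest and no covariates, with Benjamini-Hochberg adjustment over all tested genes, a threshold of 0.05, and standard errors from the root of the F statistic. DESeq2 1.42.0 was an alternative. On simulated bulk counts (2813 genes), 42 of 88 genes changed 2-fold and 83 of 83 changed 4-fold were recovered, and 7 of 132 calls were false. The other computations ran in Python 3.11.15 (scipy 1.17.1, pandas 2.3.3, numpy 2.4.6). Other well filters, selection limits, scalings, weightings and gene minimums were tried, as was leaving out each bulk library.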

Additional observations from a re-analysis of the deposited data

Results flagged for a closer look

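Hbegf and Dusp5 went opposite ways in 2 plates. Hbegf, a ligand of the EGF receptor family, had a log2 ratio of 1.36 between feedback-high and feedback-low pTSC wells and of -2.99 in differentiated TSCs, where 12 feedback-high wells held 1 UMI and 287 feedback-low wells 189. Dusp5, a phosphatase of ERK, had 0.90 in pTSCs and -0.71 in differentiated TSCs (19 against 740 UMIs, ratio 0.61, 0.37 to 0.96). Each plate is 1 library, so the difference between plates was not tested.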

How the results depend on the processing

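Each choice was changed in turn. The 24 named genes kept their direction in all 264 values from 11 alternatives. These redefined, weighted or left out wells or, for TMM scaling, changed only the totals. The kept direction is no independent support, because the genes were picked for these ratios. Past 1.5-fold in all 11 were 18, and 6 were under it at least once, at log2 ratios nearest to 0 of 0.39 for Duox2, 0.47 for Spry2, 0.55 for Dusp5, -0.35 for Serpinb9b, -0.41 for Dkk1 and -0.50 for Krt8. The Dkk1 value, from wells of middle depth, rests on at most 1 UMI in feedback-high wells. The reversals were Ccnd1 (log2 ratio 0.00053 with wells chosen on Spry4 alone) and Dusp4 (-0.12 with wells chosen after thinning). Genes higher and lower numbered 86 and 108 past a fold of 2, 106 and 98 with at least 100 UMIs per gene, and 1983 and 2447 with no minimum. Higher FGF and ERK targets numbered 2 past a fold of 2 and 1 with wells chosen after thinning. That choice called 297 genes higher and 364 lower, of which 143 and 186 were shared with the 380 and 437. With every well weighted equally, 51.5% of calls were higher, against 46.5%. In bulk, DESeq2 called 42 higher and 46 lower, and leaving out 1 library gave 50 to 98 higher and 31 to 91 lower, the fewest without CDX2-high library 39 in both. No filter on low bulk counts gave 136 and 87. No paired analysis was possible because the bulk groups share no replicate numbers (37 to 39 and 40 to 42) and each single-cell group is 1 library. Few UMIs of Dusp6 and Spry4 per well limit how cleanly the sets separate.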
